A study of Rattus norvegicus with 14 samples.

Results

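The cytochromes P450 of families 1 to 4 were examined in rat liver, without the Cyp2b subfamily, which was set apart. All genes were taken whose symbol begins with Cyp1, Cyp2, Cyp3 or Cyp4 followed directly by a letter, among array probes annotated with exactly 1 gene symbol. This gave 45 of the 14506 genes tested, each measured by 1 probe, in 19 subfamilies, and 1 of the 45, Cyp2s1-ps1, is named as a pseudogene. The livers came from 14 lean female Zucker rats of the genotype fa/+, about 15 weeks old, which carry 1 copy of the obesity mutation fa and stay lean. The 7 control rats ate a standard diet for 64 days, and the 7 extract rats ate that diet for the same time with 0.05% by weight of a rosemary extract (RE) containing 40% carnosic acid (CA), the main phenolic diterpene of rosemary. The series title gives the dose as 0.5%, and the dose of the sample labels is used here. Each array measured the whole liver RNA of 1 rat, so 1 dose, 1 time, 1 sex and 1 genotype were studied, and the comparison asks which transcripts differ after feeding the extract.

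Cytochromes P450 are heme enzymes of the endoplasmic reticulum that insert an oxygen atom into their substrates, with electrons passed to them by P450 reductase. Families 1 to 3 oxidise drugs, plant compounds, steroids and fatty acids, while family 4 mainly hydroxylates the ends of fatty acid chains. In liver, the receptor AHR drives Cyp1 genes, the receptors CAR and PXR drive Cyp2b and Cyp3a genes, and PPARA drives Cyp4a genes. In rats many P450s are also sex-specific, set by the rhythm of growth hormone release.

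Values are log2 RMA values, where RMA is the Affymetrix method that corrects background, normalizes arrays and summarises probes, and 1 unit is a doubling of signal. The 14 arrays were alike in level, with a median gene value between 6.00 and 6.18. All 10 measured hepatocyte markers were bright, with a list mean between 12.83 and 12.97 in control rats and between 12.81 and 12.91 in extract rats, and 0 of the 10 passed the test described next (0 had an unadjusted p under 0.05 in limma). Macrophage markers moved with the groups: 11 of 12 had a negative fold, 2 passed, and the list mean was 8.89 to 9.10 in control rats and 8.52 to 8.87 in extract rats, without overlap. Of the 8 stellate cell markers 1 fell, and their list mean was 7.24 to 7.57 against 6.94 to 7.33. Of the 7 bile duct markers 1 fell (list mean 4.91 to 5.24 against 4.67 to 5.23), and 0 passed among the 6 endothelial (8.94 to 9.11 against 8.56 to 9.15), 6 lymphocyte (5.61 to 5.80 against 5.54 to 5.75), 3 erythroid (7.80 to 8.37 against 7.57 to 8.32), 6 pancreatic (4.51 to 4.88 against 4.43 to 4.99) and 4 fat markers (3.86 to 4.05 against 3.82 to 4.10), with 2, 1, 0, 1 and 1 at an unadjusted p under 0.05. The part of these cell types in the results below was not tested, and in whole liver fewer cells of a type and less RNA per cell cannot be told apart. The arrays of lowest weight in limma's array weighting were control rat 1 (0.410) and extract rat 4 (0.463).

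Most P450 genes of families 1 to 4 did not pass the test between the groups, and the 8 that did lay in the Cyp1a, Cyp2j, Cyp3a, Cyp4a and Cyp4b subfamilies. In limma's moderated two-sided test, at a Benjamini-Hochberg adjusted p of 0.05 over all genes, 7 members rose, 1 fell and 37 did not pass. Those that rose were Cyp3a23-3a1, Cyp3a9 and Cyp3a62, Cyp2j3 and Cyp2j4, Cyp4a8 and Cyp1a1, and the one that fell was Cyp4b1. Over all genes 3.15% passed, 2.00% as higher and 1.15% as lower. Without control rat 1 and extract rat 4, the 7 genes kept their calls, Cyp4b1 lost its call, and Cyp2a2, Cyp2j10 and Cyp3a2 also passed. At an unadjusted p under 0.05 there were 16 members, against 14.8% of all genes. In all, 33 of 45 members had a positive log2 fold, where 49.7% of all genes did, and the median fold over members was 0.09 against -0.00088 over all genes.

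**Figure D1:**
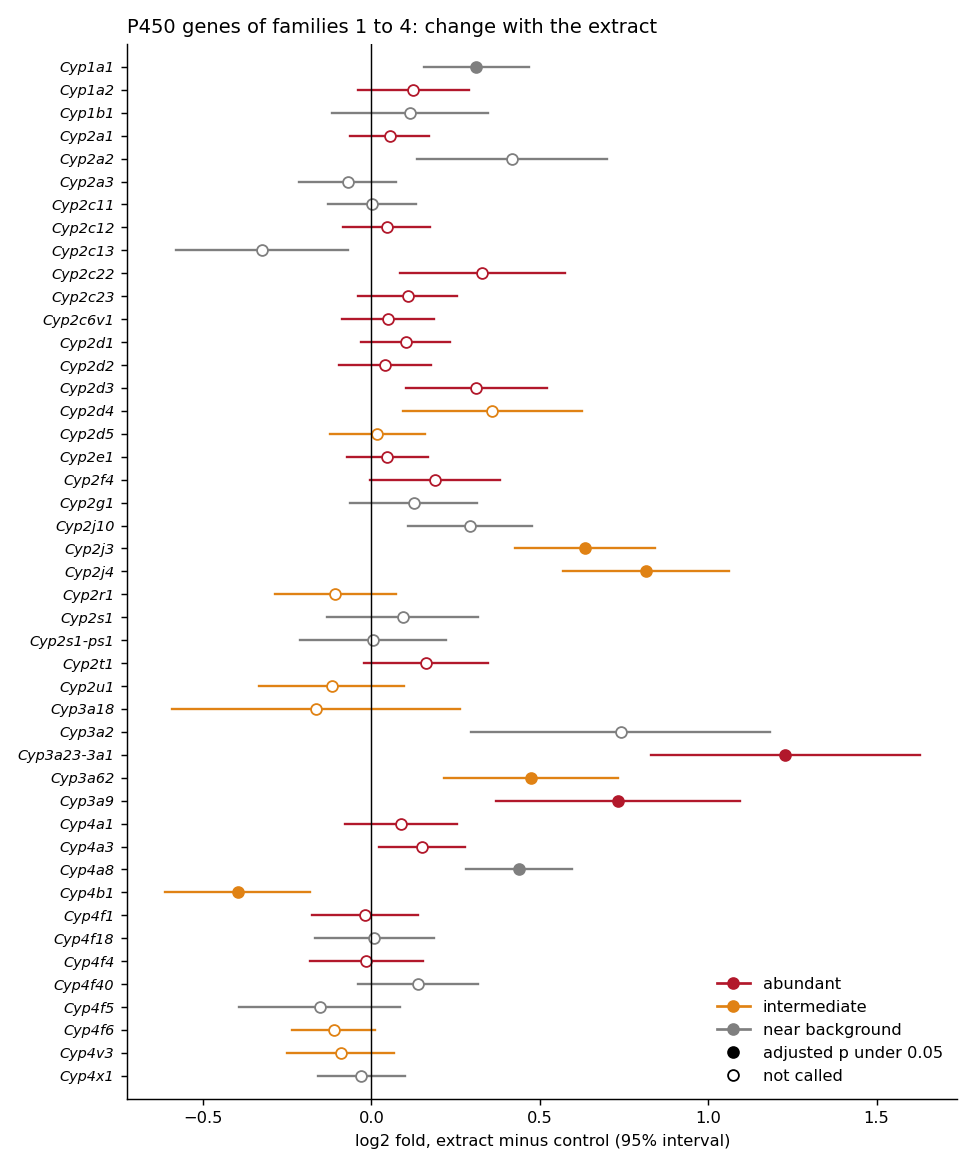
Log2 fold (extract minus control) of each of the 45 genes with its 95% interval from limma, coloured by abundance class, with filled circles for genes that passed. The intervals of Cyp3a23-3a1, Cyp2j4, Cyp2j3, Cyp3a9, Cyp4a8, Cyp3a62 and Cyp1a1 lie above 0, that of Cyp4b1 lies below 0, and most others include it.

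The members were divided by signal, since many P450s of the genome are not liver enzymes. A gene was called near background when its mean over the 14 arrays was at or below 5.10, the median of all probes, and abundant when it reached 9.72, the 90th percentile of all genes. The nearest members on either side of these limits were Cyp2a2 (5.00) and Cyp3a62 (5.24), then Cyp2d5 (9.32) and Cyp2d3 (10.01). Signal depends on the probe as well as on the transcript, so the classes rank no gene against another. Of the 18 abundant members 2 rose, Cyp3a23-3a1 and Cyp3a9, and 16 did not pass. Their median fold was 0.11, where the 1451 genes of the same class over the whole array had a median of 0.02, with 83 higher and 21 lower. For the other 16 abundant members the 95% interval of the fold lay within a 1.5-fold change in either direction. That is 88.9% of the 18, near the share of 91.1% among the 1451 abundant genes. Of the 11 intermediate members 3 rose and 1 fell, with a median of -0.09, beside -0.02 over the 7289 genes of that class, of which 178 rose and 134 fell. Leaving out control rat 1 brought the median of the 11 to -0.028, leaving out control rat 5 to -0.054, and leaving out extract rat 1 to -0.046. It was -0.0092 with array weights and turned positive, at 0.032, without control rat 1 and extract rat 4. Of the 16 members near background 2 rose, Cyp4a8 and Cyp1a1, and 14 did not pass (median 0.10), where 29 of 5766 such genes rose and 12 fell (median 0.01). Without extract rat 4 the median of the 16 was 0.036. Near background RMA compresses folds, so changes there may be understated.

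**Figure D2:**
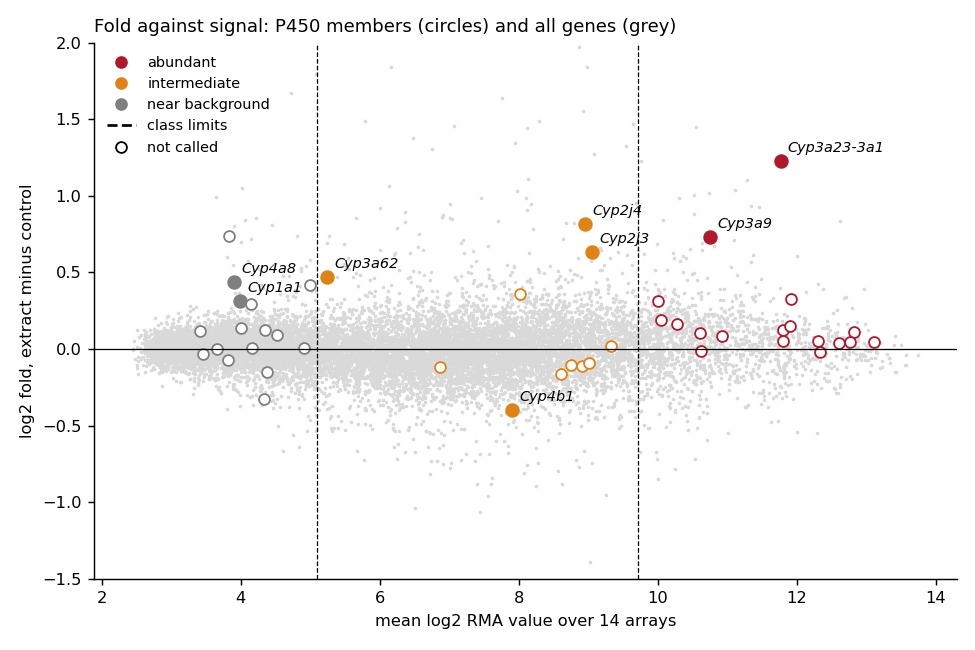
Log2 fold (extract minus control) against the mean log2 value over 14 arrays, with members as circles (filled where they passed) over all genes in grey and dashed lines at the class limits of 5.10 and 9.72; 10 genes lie outside the fold axis. The abundant members on the right lie between -0.02 and 0.33 apart from Cyp3a23-3a1 at 1.23 and Cyp3a9 at 0.73.

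The Cyp3a subfamily, whose enzymes oxidise steroids and a wide range of drugs, held 3 of the 7 genes that rose. Of its 5 measured members Cyp3a23-3a1, Cyp3a9 and Cyp3a62 rose, and Cyp3a2 and Cyp3a18 did not pass. In the RefSeq annotation of GRCr8 the genes lie on chromosome 12 in 2 places, with Cyp3a18, Cyp3a2 and Cyp3a23-3a1 in one and Cyp3a62 and Cyp3a9 in the other, 110 protein-coding genes apart, so both places hold genes that rose. The sequences before the starts of these 5 genes are shown because PXR is known to bind a direct repeat of AGTTCA spaced by 3 bases in the promoter of rat Cyp3a23. They run 5′ to 3′ on the gene's strand, from RefSeq's GRCr8 assembly. Capitals mark the repeat where a window holds it (2 copies of AGTTCA with any 3 bases between them, searched on both strands), and otherwise single copies of AGTTCA or its complement TGAACT.
Cyp3a23-3a1 (chr12:14398804-14399053, minus strand): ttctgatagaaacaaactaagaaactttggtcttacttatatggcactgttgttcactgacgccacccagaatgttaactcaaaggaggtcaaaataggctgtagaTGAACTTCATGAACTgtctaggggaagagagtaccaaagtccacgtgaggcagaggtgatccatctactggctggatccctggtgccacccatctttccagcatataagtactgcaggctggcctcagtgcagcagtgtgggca
Cyp3a2 (chr12:14343887-14344107, minus strand): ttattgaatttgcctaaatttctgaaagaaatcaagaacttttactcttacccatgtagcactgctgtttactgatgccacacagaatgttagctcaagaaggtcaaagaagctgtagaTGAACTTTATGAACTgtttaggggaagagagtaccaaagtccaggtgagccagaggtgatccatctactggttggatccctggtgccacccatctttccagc
Cyp3a9 (chr12:21960161-21960410, minus strand): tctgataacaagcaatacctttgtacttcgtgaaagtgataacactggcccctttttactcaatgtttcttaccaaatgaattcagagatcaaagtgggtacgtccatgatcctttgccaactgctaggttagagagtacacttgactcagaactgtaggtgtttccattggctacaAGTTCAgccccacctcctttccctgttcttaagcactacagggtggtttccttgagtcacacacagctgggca
Cyp3a62 (chr12:21511513-21511762, plus strand): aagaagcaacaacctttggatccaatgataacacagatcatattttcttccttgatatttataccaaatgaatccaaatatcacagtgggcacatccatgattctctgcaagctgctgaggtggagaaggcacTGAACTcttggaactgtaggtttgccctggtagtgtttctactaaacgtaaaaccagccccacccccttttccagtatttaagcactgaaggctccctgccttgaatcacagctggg
Cyp3a18 (chr12:13994062-13994311, plus strand): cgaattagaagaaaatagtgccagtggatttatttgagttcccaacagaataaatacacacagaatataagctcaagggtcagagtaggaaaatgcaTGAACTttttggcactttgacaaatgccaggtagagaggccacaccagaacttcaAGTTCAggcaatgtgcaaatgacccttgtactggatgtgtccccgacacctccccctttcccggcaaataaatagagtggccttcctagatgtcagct
The repeat was found as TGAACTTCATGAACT at -144 to -130 from the start of Cyp3a23-3a1 and as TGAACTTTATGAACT at -131 to -117 from the listed start of Cyp3a2. The Cyp3a2 window was shortened to 221 bases, to end before the first annotated base of the gene. Among the 33469 windows of 250 bases in the RefSeq promoter table, 2 held the repeat (0.00598%), and they were these 2 genes. Their sequences were identical at 178 of 202 aligned bases. The repeat is known from the promoter of rat Cyp3a23, so finding it in Cyp3a23-3a1 was no independent result. A match is a description of letters, this motif was searched after the values of the genes were known, and the windows of Cyp3a9, Cyp3a62 and Cyp3a18 held only single exact copies. Repeats with mismatches were not searched. In the Cyp3a62 window TGAACT is followed after 3 bases by GGAACT, which differs from it by a single letter.

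Cyp3a23-3a1, a CYP3A enzyme long known to be inducible by foreign steroids, had the largest fold of the 45 genes. Control rats ranged from 10.63 to 12.19 with a median of 10.88, and extract rats from 11.87 to 12.64 with a median of 12.47. Of the 7 extract rats 6 lay above every control, and the groups overlapped because control rat 1 (12.19) stood above extract rat 4 (11.87). The means were 11.15 ± 0.53 and 12.38 ± 0.26 (SD of 7 rats in each group), a 2.34-fold rise (log2 fold 1.23 ± 0.19 SE, adjusted p = 0.000869). The log2 fold ranged from 1.14 to 1.49 over the alternatives that were run, and it passed in all 24 of them.

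Cyp3a9, a CYP3A form that is higher in female rat liver, rose from 10.39 ± 0.40 to 11.12 ± 0.34 (SD of 7 rats in each group). The lowest, median and highest controls were 9.88, 10.41 and 10.89, against 10.58, 11.24 and 11.43 in extract rats. Extract rats 4 and 6 lay within the control range and the other 5 lay above it. The rise was 1.66-fold (log2 fold 0.73 ± 0.17 SE, adjusted p = 0.0235). The call did not hold when each group was given its own variance (adjusted p = 0.106), nor without control rat 7 or without extract rat 2, 3 or 5, where the adjusted p lay between 0.0512 and 0.0593.

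Cyp3a62, another CYP3A form found in liver and intestine, was dimmer, with 4.72, 4.99 and 5.52 as the lowest, median and highest control and 5.25, 5.40 and 5.84 in extract rats. Only control rat 1 lay above the lowest extract rats, and 3 extract rats lay above every control. The rise was 1.39-fold (log2 fold 0.47 ± 0.12 SE, adjusted p = 0.0423). It stands close to the threshold: leaving out a single rat lost the call for 11 of 14 rats (adjusted p from 0.0518 to 0.102), as did repeated quantile normalization (0.0504), median centring (0.0547) and group-specific variances (0.132).

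Cyp3a2, the male form that carries the same promoter repeat, lay near background. Its lowest, median and highest values were 3.28, 3.41 and 3.74 in control rats and 3.45, 4.02 and 5.21 in extract rats. Extract rats 3 (5.21) and 5 (4.92) stood well above the rest and extract rat 4 (3.45) lay among the controls. The log2 fold was 0.74 ± 0.21 SE with an adjusted p of 0.0680, and an exact two-sided permutation test over the 3432 assignments of rats gave an unadjusted p of 0.00350. The adjusted p was 0.0264 with array weights and 0.0217 without extract rat 4. Cyp3a18, also male-biased, had a control median of 8.55 and an extract median of 8.51, ranging from 8.32 to 9.51 and from 7.91 to 9.28, and its fold of -0.16 (95% interval -0.59 to 0.26) leaves a change of either sign possible. It was highest in control rat 1 and, like Cyp3a2, in extract rats 3 and 5 among the extract rats, and without control rat 1 and extract rat 4 its fold was 0.043.

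To compare members of a subfamily, the difference between the log2 values of 2 genes in each rat was compared between the groups by an exact two-sided permutation test, for all 61 pairs within the 9 subfamilies of more than 1 member, with Benjamini-Hochberg adjustment over the 61. In all, 13 pairs passed, 5 of them among the 10 Cyp3a pairs. The fold of Cyp3a23-3a1 exceeded that of Cyp3a18 by 1.39 and that of Cyp3a62 by 0.76 (adjusted p = 0.0178 for each). Cyp3a2, Cyp3a9 and Cyp3a62 also exceeded Cyp3a18, by 0.90, 0.90 and 0.64 (adjusted p = 0.0178, 0.0249 and 0.0237). Of 16 settings tried, the Cyp3a9 pair lost its call without control rat 4 (0.0520) and without control rat 1 and extract rat 4 (0.0616), and the Cyp3a62 pair lost it in the latter (0.0566). Cyp3a23-3a1 exceeded Cyp3a9 by 0.50, which did not pass (adjusted p = 0.0750). The smallest unadjusted p that 7 against 7 rats can give is 0.000583. How far the array separates these similar transcripts was not tested.

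**Figure D3:**
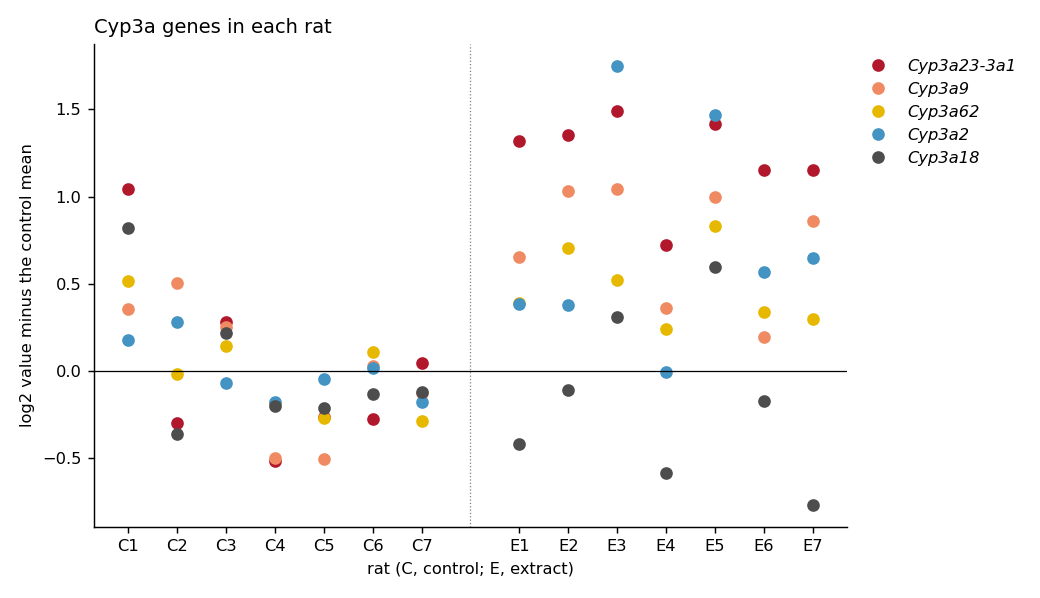
Log2 value of each Cyp3a gene minus its control mean in each rat (C1 to C7, control; E1 to E7, extract). Cyp3a23-3a1 is above 0 in all 7 extract rats, control rat 1 is the highest control for Cyp3a23-3a1, Cyp3a62 and Cyp3a18, and Cyp3a18 spreads to both sides of 0.

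The Cyp2j subfamily, whose enzymes turn arachidonic acid into epoxides, held 2 of the 3 genes whose groups did not overlap. Cyp2j4 and Cyp2j3 rose, and Cyp2j10, which is near background, did not pass. Cyp2j4 had 7.95, 8.58 and 8.84 as the lowest, median and highest control, and 9.10, 9.38 and 9.56 in extract rats. Every extract rat lay above every control, which was true of 3 members, Cyp2j4, Cyp2j3 and Cyp4a8, while 1.54% of all genes showed no overlap. The rise of Cyp2j4 was 1.76-fold (8.54 ± 0.30 to 9.36 ± 0.17, SD of 7 rats in each group). Its log2 fold was 0.81 ± 0.12 SE with an adjusted p of 0.000425, the smallest p of the 45 genes.

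Cyp2j3, which lies directly beside Cyp2j4 on chromosome 5, had 8.50, 8.78 and 8.98 in control rats and 9.12, 9.46 and 9.70 in extract rats in the same order. It rose 1.55-fold (8.74 ± 0.18 to 9.37 ± 0.21, SD of 7 rats in each group), and its log2 fold was 0.63 ± 0.10 SE with an adjusted p of 0.000948. Both Cyp2j calls were kept in all 24 alternatives, with log2 folds from 0.72 to 0.91 for Cyp2j4 and from 0.58 to 0.69 for Cyp2j3. Cyp2j10, on the same chromosome, went from a median of 3.94 (3.87 to 4.32) to 4.29 (4.03 to 4.53), with overlapping groups and a log2 fold of 0.29 ± 0.09 SE (adjusted p = 0.0833). It passed with array weights (0.0205), without control rat 5 (0.0266) and without extract rat 4 (0.0372). The fold of Cyp2j4 exceeded that of Cyp2j10 by 0.52 in the permutation test of pairs (adjusted p = 0.0178), while Cyp2j3 and Cyp2j10 differed by 0.34 (adjusted p = 0.0559). Cyp2j10 lay near background, where folds may be understated, and the part of this in both differences was not tested.

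**Figure D4:**
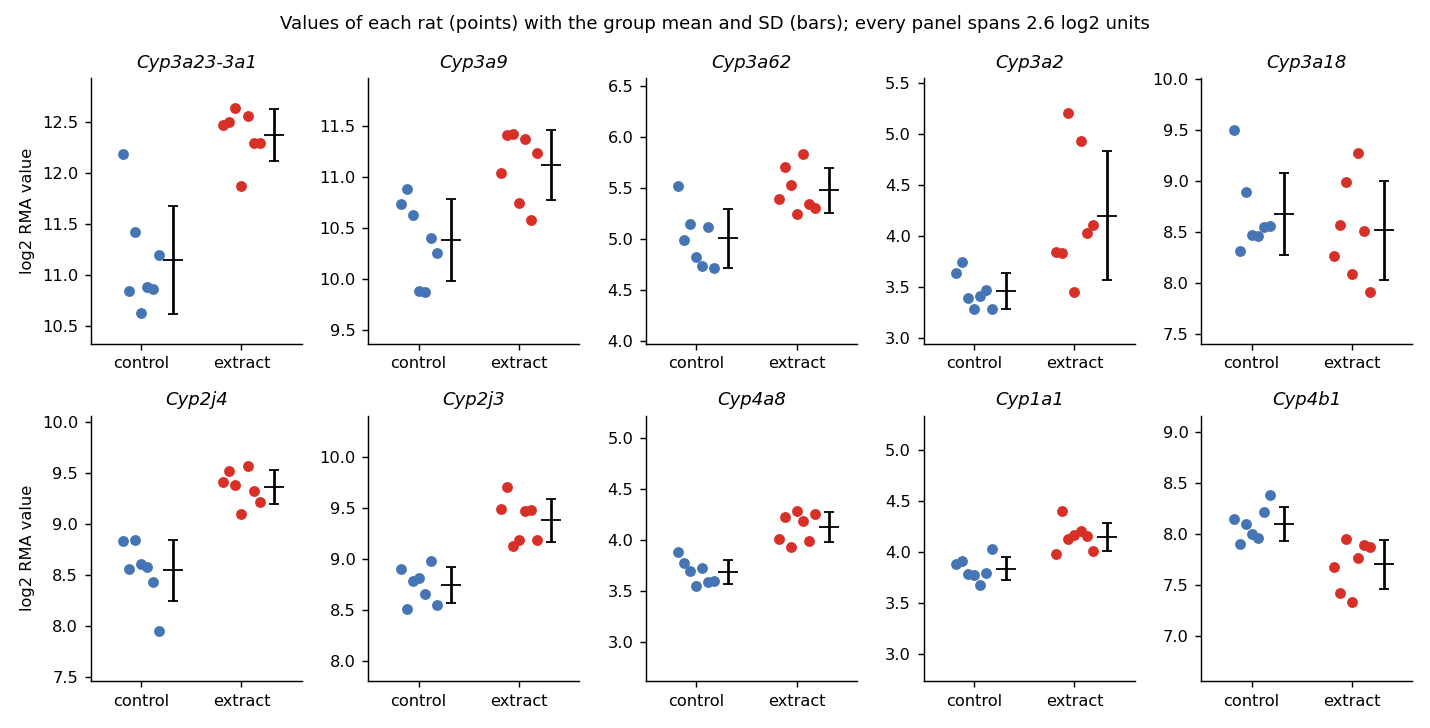
Log2 value of each rat (points) with the mean and SD of the group (bars) for the 8 members that passed and for Cyp3a2 and Cyp3a18. The groups do not overlap for Cyp2j4, Cyp2j3 and Cyp4a8, and Cyp4b1 is the gene of the 8 that is lower with the extract.

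In family 4, the fatty acid hydroxylases, 1 of 12 members rose, 1 fell and 10 did not pass. Cyp4a8, described mainly from kidney, was near background in every rat, from 3.55 to 3.88 in control rats and from 3.93 to 4.28 in extract rats with medians of 3.70 and 4.18. It passed without overlap between the groups (log2 fold 0.44 ± 0.07 SE, adjusted p = 0.00219). The liver Cyp4a forms that PPARA drives were abundant and did not pass. Cyp4a3 had means of 11.83 ± 0.09 and 11.98 ± 0.08 (SD of 7 rats in each group) and a log2 fold of 0.15 (95% interval 0.02 to 0.28, adjusted p = 0.242), and Cyp4a1 had medians of 10.87 and 11.04 and a fold of 0.09 (-0.08 to 0.25, adjusted p = 0.686). Cyp4a8 exceeded Cyp4a3 by 0.29 in the pair test (adjusted p = 0.0296), a call lost under 6 of the 16 settings tried (leaving out any of control rats 2, 3, 4 and 6 and extract rats 2 and 5), and exceeded Cyp4a1 by 0.35 (adjusted p = 0.0592).

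Cyp4b1, a lung-type P450 known for activating furan toxins, was the member that fell, although it lies directly beside Cyp4a1. Its lowest, median and highest values were 7.91, 8.10 and 8.39 in control rats and 7.33, 7.77 and 7.95 in extract rats. Of the 7 extract rats 6 lay below every control, and extract rat 3 (7.95) lay among the lowest controls. The log2 fold was -0.40 ± 0.10 SE (adjusted p = 0.0421). The call was lost without any 1 of 8 of the 14 rats (adjusted p from 0.0532 to 0.101), after median centring (0.0587), with array weights (0.0658) and with group-specific variances (0.123). The macrophage markers given above were also lower in extract rats, and their part in this fall was not tested.

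The 6 Cyp4f genes, whose products inactivate leukotrienes and hydroxylate long fatty acids, gave 0 calls in limma (0 at an unadjusted p under 0.05), with folds from -0.15 to 0.14. The abundant Cyp4f1 had medians of 12.34 and 12.32, with ranges of 12.08 to 12.53 and 12.14 to 12.51 that overlap, and a fold of -0.02 (95% interval -0.18 to 0.14). Cyp4f4 had a fold of -0.02 (-0.18 to 0.15), Cyp4f6 of -0.11 (-0.24 to 0.01), and Cyp4f5, Cyp4f18 and Cyp4f40 lay near background with folds of -0.15, 0.01 and 0.14. In the pair test Cyp4f40 exceeded Cyp4f6 by 0.25 (adjusted p = 0.0203). Cyp4v3, a fatty acid hydroxylase, had a fold of -0.09 (-0.25 to 0.07), and Cyp4x1 lay near background in all rats (3.30 to 3.57) with a fold of -0.03.

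In family 1, which AHR drives, Cyp1a1 rose while staying near background. Control rats lay between 3.68 and 4.03 and extract rats between 3.98 and 4.40, with medians of 3.80 and 4.16, and 5 extract rats lay above every control. The log2 fold was 0.31 ± 0.07 SE (adjusted p = 0.0243). Leaving out any 1 of 4 rats (control rats 3 and 5, extract rats 2 and 5) lost the call, with an adjusted p between 0.0523 and 0.0563. Cyp1a2, the liver form that oxidises caffeine, was abundant, with a median of 11.72 in control rats (11.59 to 11.96) and 11.86 in extract rats (11.56 to 12.08). Its log2 fold was 0.12 (95% interval -0.04 to 0.29, adjusted p = 0.510). Cyp1a1 and Cyp1a2 lie side by side on chromosome 8, and the difference of their folds was 0.19 in the pair test (adjusted p = 0.222). Cyp1b1, an AHR target of non-hepatocyte cells, was near background with a fold of 0.11 (-0.12 to 0.35). This fold was 0.0099 without extract rat 4, which stood at 4.10 against 3.22 to 3.62 in the other extract rats.

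The abundant liver P450s of family 2 had positive folds of at most 0.33, and none of the 11 passed in limma (2 had an unadjusted p under 0.05). Cyp2e1, which oxidises ethanol and acetaminophen, had a median of 12.78 in both groups, with controls from 12.60 to 12.85 and extract rats from 12.74 to 12.90, and a fold of 0.05 (95% interval -0.07 to 0.17). Of the 6 Cyp2c genes 0 passed in limma (2 had an unadjusted p under 0.05). Cyp2c23, an arachidonic acid epoxygenase, had a fold of 0.11 (-0.04 to 0.26), and Cyp2c6v1, which CAR can induce, one of 0.05 (-0.09 to 0.18). Cyp2c22, an abundant liver form, had 11.43, 11.79 and 12.11 as the lowest, median and highest control and 11.61, 12.15 and 12.31 in extract rats. Of the extract rats 4 lay above every control and rat 7 lay lowest, and its fold of 0.33 (0.08 to 0.57) had an adjusted p of 0.161, or 0.0392 without extract rat 7.

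Of the 5 Cyp2d genes, close copies that lie next to each other on chromosome 7 and oxidise many basic drugs, 0 passed in limma and 2 had an unadjusted p under 0.05. All 5 had positive folds, from 0.02 to 0.36. Cyp2d2, measured by the brightest of the 5 probes, had medians of 12.55 and 12.65 and a fold of 0.04 (95% interval -0.10 to 0.18). Cyp2d4 went from 7.84 ± 0.30 to 8.20 ± 0.23 (SD of 7 rats in each group), with 5 extract rats above every control and an adjusted p of 0.158, and Cyp2d3 from 9.85 ± 0.26 to 10.16 ± 0.10 (adjusted p = 0.111, or 0.0246 with array weights). Cyp2d1 and Cyp2d5 had folds of 0.10 (-0.03 to 0.23) and 0.02 (-0.12 to 0.16). Of the 10 pairs of Cyp2d genes 0 passed the permutation test after adjustment, and the smallest adjusted p was 0.0750.

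Sex-specific P450s matched the female label of the rats, apart from the male-biased Cyp3a18. The mean of Cyp3a18 over the 14 rats was 8.60, in the intermediate class, while the other male-biased genes lay near background. Cyp2c12, the female form that hydroxylates steroid sulfates, ranged from 12.87 to 13.20 over all 14 rats, whereas its male counterpart Cyp2c11 lay near background, from 3.54 to 3.78. Neither passed the test: the folds were 0.05 (95% interval -0.08 to 0.17) and 0.00 (-0.13 to 0.13). Cyp2a1, a testosterone hydroxylase that is higher in females, had medians of 11.76 and 11.82 and a fold of 0.05 (-0.06 to 0.17). Of the 3 measured female-biased genes 1 rose, Cyp3a9, and 0 of the 5 male-biased genes passed in limma, although 3 of these had an unadjusted p under 0.05.

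The male-biased genes had folds of both signs. Beside Cyp3a2, Cyp2a2 went from 4.79 ± 0.32 to 5.21 ± 0.24 (SD of 7 rats in each group). Its mean over the 14 arrays (5.00) was near background, while the mean of the extract rats was above the limit of 5.10. Of the extract rats 5 lay above every control, and control rat 7 (4.12) lay far below the other controls. The adjusted p of Cyp2a2 was 0.112, or 0.0470 without extract rat 4 and 0.0314 with array weights. Cyp2c13 went the other way, from a median of 4.38 (4.35 to 5.10) to 4.29 (3.73 to 4.37), with 6 extract rats below every control and control rat 6 (5.10) far above the others. Its fold was -0.32 ± 0.12 SE (adjusted p = 0.189). In the pair test Cyp2c13 differed from 4 of the other 5 Cyp2c genes, by 0.65 from Cyp2c22 and 0.37 from Cyp2c12 (adjusted p = 0.0178 for both). Its difference of 0.43 from Cyp2c23 passed (0.0296) but was lost in 5 of 16 settings, among them those leaving out control rat 3, 4 or 6 or extract rat 2. Cyp2c13 lay near background, where folds may be understated, and the part of this in these differences was not tested.

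The remaining genes of family 2 gave 0 calls in limma (0 at an unadjusted p under 0.05). Cyp2f4, which acts on naphthalene in lung, was abundant here, from 9.70 to 10.31 in control rats and from 10.09 to 10.25 in extract rats, with a fold of 0.19 (95% interval -0.01 to 0.38), and Cyp2t1 had one of 0.16 (-0.02 to 0.35). Cyp2r1, the vitamin D 25-hydroxylase, had a fold of -0.11 (-0.29 to 0.07), and Cyp2u1, a fatty acid hydroxylase, one of -0.12 (-0.33 to 0.10). Cyp2g1 of the olfactory mucosa and Cyp2s1 of surface epithelia were near background, with folds of 0.13 and 0.09, as were Cyp2a3 (-0.07) and Cyp2s1-ps1 (0.00).

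The Cyp2a, Cyp2f, Cyp2g, Cyp2s and Cyp2t genes share 1 block of chromosome 1 with the Cyp2b genes. Cyp2b genes are the classic targets of CAR and of the drug phenobarbital. Among Cyp2b genes 3 of 6 rose: Cyp2b2 by 18.9-fold (5.33 ± 0.38 to 9.56 ± 0.52, SD of 7 rats in each group), Cyp2b1 by 2.07-fold (log2 fold 1.05) and Cyp2b15 by 1.20-fold (adjusted p = 0.0493; lost without any 1 of 11 rats). Cyp2b1 (means of 3.49 and 4.54) and Cyp2b15 (4.53 and 4.79) lay near background in control and extract rats, so their folds may be understated. In the same block 0 of 7 protein-coding members outside Cyp2b passed in limma, 1 had an unadjusted p under 0.05, and their folds ran from -0.07 for Cyp2a3 to 0.42 for Cyp2a2. Cyp2b3, whose signal was high in both groups, had a fold of 0.21 that did not pass.

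**Figure D5:**
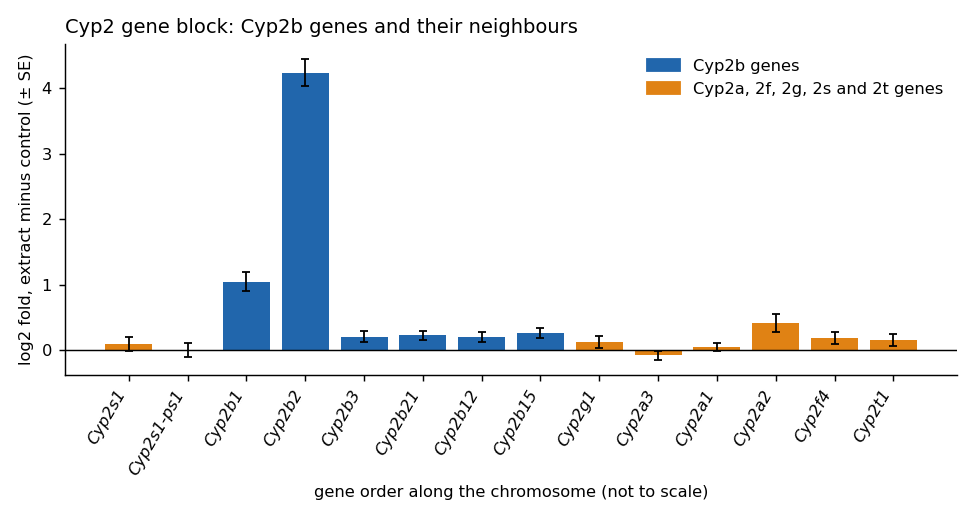
Log2 fold (extract minus control, bars, with the SE as whiskers) of the measured Cyp2 genes in their order along the block on chromosome 1, not to scale, with Cyp2b genes in blue. Cyp2b2 (4.24) and Cyp2b1 (1.05) stand above the other 12 genes, which lie between -0.07 and 0.42.

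Promoter letters were also counted for motifs chosen from general knowledge of gene promoters. The count covered the 250 bases before the start of the 38 members found in the RefSeq table, on both strands. TATAAA, the letters of the TATA box, was present in 13 of 38 members and in 12.9% of all windows. For each motif a member was counted when any of its windows held it, while the percentages are of single windows, so the units differ. A match counts at any position on either strand, so it does not locate a working TATA box. GCGTG, the core of the site bound by AHR, was present in 9 of 38 and in 25.9%, and TGACNNNGC, the core of the antioxidant response element, in 3 of 38 and in 10.1%. None of these 3 motifs is contained in another. Of the 8 members that passed, Cyp4b1 held TGACNNNGC, Cyp3a62 held TATAAA only on the opposite strand (TTTATA as printed above), and Cyp1a1 had no window in the table. Cyp3a23-3a1, with the near match TATAAG close to its start, was counted as lacking TATAAA.

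The genes that serve P450 enzymes or control their genes were read as lists of known members of each pathway. Of 8 measured electron transfer partners 2 rose, 1 fell and 5 did not pass. Por, the reductase that feeds electrons to all these P450s, rose 1.46-fold, from 8.95 ± 0.21 to 9.50 ± 0.36 (SD of 7 rats in each group), with an adjusted p of 0.0371 and 6 extract rats above every control. Its call was lost without any 1 of 8 rats, after median centring (0.0529) and with group-specific variances (0.147). Pgrmc1, a heme-binding protein that associates with P450s, rose 1.26-fold (12.50 ± 0.14 to 12.84 ± 0.05, adjusted p = 0.00737), and its relative Pgrmc2 fell, from 10.35 ± 0.11 to 9.98 ± 0.11 (log2 fold -0.37, adjusted p = 0.00395), with every extract rat below every control. Both calls were kept in all 24 alternatives. Cytochrome b5 (Cyb5a) and its reductase Cyb5r3 had folds of -0.02 and 0.01.

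Among 11 measured regulators of P450 genes 1 rose, Nr1i3, which encodes CAR and went from 5.08 ± 0.11 to 7.45 ± 0.38 (5.20-fold). The control values, from 4.93 to 5.24, lay around the near-background limit of 5.10, so this fold may be understated. Nr1i2, which encodes PXR, had a fold of -0.16 (adjusted p = 0.623), Ahr one of 0.16 (0.638) and Ppara one of 0.13 (0.812). By receptor, 3 of 7 measured CAR- and PXR-inducible members rose, all of them Cyp3a genes, with a median fold of 0.47. Of the AHR-driven members 1 of 3 rose (median 0.12), and of the 2 measured PPARA-driven members 0 passed in limma (median 0.12; 1 had an unadjusted p under 0.05).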

How the data were processed

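The deposited values are log2 expression values of 14 arrays, 1 per rat, on 29215 probes. Per the submitters' processing notes, the authors used RMA and Affymetrix Expression Console 1.1.2. Options and genome build are not given in the sources used here. The log2 scale was read from the range of the values (1.95 to 14.0). Groups and rat numbers came from the sample titles.

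Gene symbols of the probes came from the platform table at GEO: 15310 had 1 symbol, 323 several, and 13582 were unnamed here. Entrez identifiers matched RefSeq's GRCr8 table for 15279 probes and changed 0 symbols. For the 527 genes with several probes the brightest was used (highest mean over 14 arrays), giving 14506 genes. No further normalization and no filter on dim genes was applied. The groups were compared with limma 3.58.1 (lmFit, eBayes, two-sided) in R 4.3.3, without covariates, with Benjamini-Hochberg adjustment over all genes. Folds are extract minus control. Pairs within subfamilies were compared by exact permutation over samples. The fit was tested on simulated data. Python 3.11.15, pandas 2.3.3 and matplotlib 3.10.9 were used.

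The 45 members, the gene and marker lists, the abundance classes and the alternatives were chosen with earlier results of these data known. Genes described in detail were the members that passed, the brightest member of each subfamily, abundant members with an unadjusted p under 0.05 and sex-biased members. Some members outside these rules, among them Cyp2d4 and Cyp2j10, were also described in detail, with their values known. Of the other lists, genes that passed are named, with further genes chosen after their values were seen. The pair comparisons, the AGTTCA repeat and the fit without control rat 1 and extract rat 4 were also added after the data had been seen.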

Additional observations from a re-analysis of the deposited data

Results flagged for a closer look

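In the 80 groups of 7 rats formed by 40 named genes, 8 held a rat far from the other 6 by Dixon's test, where chance flags about 1 group in 20. Cyp2c13 stood at 5.10 in control rat 6, against 4.35 to 4.44 in the other controls. Cyp2s1 stood at 4.08 in the same rat, against 4.49 to 4.62. Control rat 7 was low for Cyp2a2 (4.12, against 4.69 to 5.08) and for Cyp2c12 (12.87, against 13.08 to 13.19). Extract rat 7 was low for Cyp2c22 (11.61, against 12.02 to 12.31) and high for Cyp4v3 (9.24, against 8.84 to 8.99). Control rat 1 was high for Pgrmc1 (12.79, against 12.39 to 12.55), and extract rat 4 was high for Fech (9.49, against 8.91 to 9.09).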

How the results depend on the processing

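Of the 8 calls among members, those of Cyp3a23-3a1, Cyp2j3 and Cyp2j4 were kept in all 24 alternatives run. Cyp4a8, which is not tested once dim genes are dropped, kept its call in all 22 alternatives that held it. Members higher numbered 4 (in place of 7) when dim genes were dropped (mean under 6, or under that of the median gene), which leaves 28 members in the test, 11 with array weights, and 4 to 10 without single rats. The count of 4 came without extract rat 2 or 5. Members lower numbered 0 after median centring, with array weights, with group-specific variances and without control rat 1 and extract rat 4, and 0 to 1 without single rats. The near-background class has no value once dim genes are dropped. Array weights added Cyp2a2, Cyp2d3, Cyp2j10 and Cyp3a2. Over all genes, group-specific variances gave 171 higher and 56 lower, array weights 262 lower, an adjusted p of 0.1 gave 291 lower, and without single rats 209 to 329 were higher and 116 to 292 lower (292 without control rat 1). The median fold near background was 0.036 to 0.13 without single rats, and that of intermediate members, -0.09, was -0.096 to -0.028 without single rats, -0.0092 with array weights and 0.032 without control rat 1 and extract rat 4. Pairs of one subfamily that differed numbered 9 to 16 without single rats.

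Signs of folds near 0, called nowhere, turned. Repeated quantile normalization gave -0.0011 for Cyp2c11, -0.0024 for Cyp2s1-ps1 and 0.0023 for Cyp4f1. Array weights gave -0.0098 for Cyp2c11, -0.042 for Cyp2s1-ps1 and 0.00063 for Cyp4f4. Without control rat 1 and extract rat 4 the folds were -0.0025 for Cyp2c11, -0.10 for Cyp2s1-ps1, 0.043 for Cyp3a18 and 0.0077 for Cyp4f4. Without single rats folds ran from -0.018 to 0.018 for Cyp2c11, -0.0086 to 0.042 for Cyp2d5, -0.085 to 0.046 for Cyp2s1-ps1, -0.063 to 0.013 for Cyp4f1, -0.027 to 0.048 for Cyp4f18 and -0.054 to 0.025 for Cyp4f4. The causes were not tested.

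Rat numbers are shared between groups but do not pair the rats: same-numbered rats correlated above 0.1 in their deviations for 4 of 7 numbers, and 2 of 7 correlated best with their own number. With the rat number as a replicate block, 6 members were higher and 1 lower, with 6 of the 8 calls kept, Cyp1a1 (adjusted p = 0.0748) and Cyp3a62 (0.0699) lost and Cyp2d4 added; over all genes 235 were higher and 129 lower. Precision is set by 7 arrays in each group, which gave a median SE of 0.087 for the folds of all genes.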

Other observations

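Of the 18 measured P450 genes outside families 1 to 4, 0 rose and 1 fell. Cyp17a1, the steroid 17-hydroxylase, fell from 7.10 ± 0.49 to 6.37 ± 0.27 (SD of 7 rats in each group). Its log2 fold was -0.73 with an adjusted p of 0.0353 in limma, a call lost without any 1 of 8 rats. Cyp39a1, an oxysterol hydroxylase, had a positive fold of 0.29 (adjusted p = 0.0880), with 6 extract rats above every control.

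Of 7 measured genes of heme synthesis, which supply the P450 cofactor, 1 rose and 6 did not pass. Fech, which inserts iron to form heme, rose 1.29-fold, from 8.69 ± 0.14 to 9.05 ± 0.20 (SD of 7 rats in each group), with an adjusted p of 0.0353, and every extract rat lay above every control. Its call was lost without any 1 of 7 rats. Alas1, the first enzyme of the pathway, had a fold of 0.15 (adjusted p = 0.599).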
